A study of Homo sapiens with 8 samples.

Results

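The response of HCT116 cells to doxorubicin was measured in cells that had received an siRNA against TAF3. HCT116 is an established human colon carcinoma line. The comparison sets 2 arrays of cells given TAF3 siRNA and then 0.5 µM doxorubicin for 24 hours (replicates 2 and 4) against 2 arrays of cells given TAF3 siRNA and no drug (replicates 1 and 3), so 4 of the 8 arrays of the series enter it. The drug was added 48 hours after transfection. The other 4 arrays hold cells given a non-targeting siRNA, 2 with doxorubicin (replicates 2 and 4) and 2 untreated (replicates 1 and 3), and they supply part of the estimate of the spread and the response set beside this one. All 8 samples are total RNA of transfected cells, and the labels do not say how many siRNA sequences were used or whether replicates were separate cultures. The p-values therefore take in no more than array-to-array spread, and that spread may be technical.

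Doxorubicin traps topoisomerase II on DNA and breaks the strands. Cells with intact p53, such as HCT116, then accumulate p53, which switches on genes that hold the cell cycle, repair DNA or favour apoptosis. One of these, CDKN1A, blocks cyclin-dependent kinases, so that the RB-family proteins p107 and p130 stay bound to E2F and MuvB proteins in the DREAM complex and silence genes of DNA replication and mitosis. TAF3 is a subunit of TFIID, the factor that places RNA polymerase II at promoters, and its PHD finger binds histone H3 trimethylated at lysine 4. The series title poses the question of how TAF3 takes part in selective gene activation.

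Values below are normalised log2 signals, in which 1 unit stands for a change by a factor of 2, and a change is doxorubicin minus untreated, with the standard error of the fit and n = 2 arrays per group. A feature (a gene, or a probe without a gene name) was called when its adjusted p-value was below 0.05. A gene was read from its brightest probe, and its other probes could give another size of change. Smaller examples were those of CDKN1A (0.89 against 2.23), TP53I3 (1.99 against 3.57), ATF3 (0.62 and 0.83 against 1.98) and CDC25A (-0.40 against -1.24). Those of KIF23 (-0.87 against -1.79), UBE2C (-0.79 against -1.58) and POLA1 (-0.49 against -1.33) were smaller too. Larger examples were those of RN7SK (3.24 against 2.87), RRM2B (2.02 against 1.51) and HMMR (-2.66 against -2.50). Further genes given below also had probes with a smaller or larger change. TAF3 itself could be followed only at the edge of detection. One of its 2 probes was below background on all 8 arrays. The other gave signals of 76.6 and 67.3 with TAF3 siRNA and doxorubicin, 62.7 and 76.0 with TAF3 siRNA alone, 89.3 and 101.0 with control siRNA and doxorubicin, and 78.1 and 81.4 with control siRNA alone. Only both control siRNA arrays with doxorubicin lay above their background thresholds, which ran from 81.3 to 87.3 over the 8 arrays. The size of the knockdown therefore could not be read from these arrays, and an effect of TAF3 loss cannot be told apart from another effect of its siRNA.

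Between 17621 and 18932 probes were above background on the treated arrays, against 17428 and 17972 on the untreated ones. Of 10 markers of the colon epithelial line, 8 were measured and all 8 lay above background on every array, with mean levels of 11.19 and 10.95 with doxorubicin and 10.72 and 11.03 untreated. Of 20 fibroblast, blood and endothelial markers, 12 were not detected on at least 2 arrays, and the 8 measured averaged 7.02 and 7.23 against 7.02 and 7.10. No marker of either list was called. In such bulk samples, fewer cells of a kind and less RNA per cell cannot be told apart.

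With TAF3 siRNA, doxorubicin changed 761 of 16348 features: 340 rose and 421 fell, which is 4.66% of all features, 2.08% higher and 2.58% lower. The 2 arrays of one group did not overlap those of the other for any called feature, as also held for 47.7% of all features. The median change was 1.06 among the features that rose and -1.07 among those that fell, and 190 and 242 of them changed by at least 1 unit. Of the calls, 44.7% were higher, against 30.1% of 705 calls with median centring in place of quantile normalisation. These counts depended on single arrays: without doxorubicin replicate 2 there were 36 calls, without untreated replicate 3 there were 126, without untreated replicate 1 there were 1630, and without either control siRNA doxorubicin array, which only adds to the estimate of the spread, there were 239. Fitted on the 4 TAF3 siRNA arrays alone the call count was 0, with 2548 features at an unadjusted p below 0.05 and a smallest adjusted p of 0.0567. For a single gene, an exact permutation test of 2 arrays against 2 cannot go below p = 0.333.

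**Figure D1:**
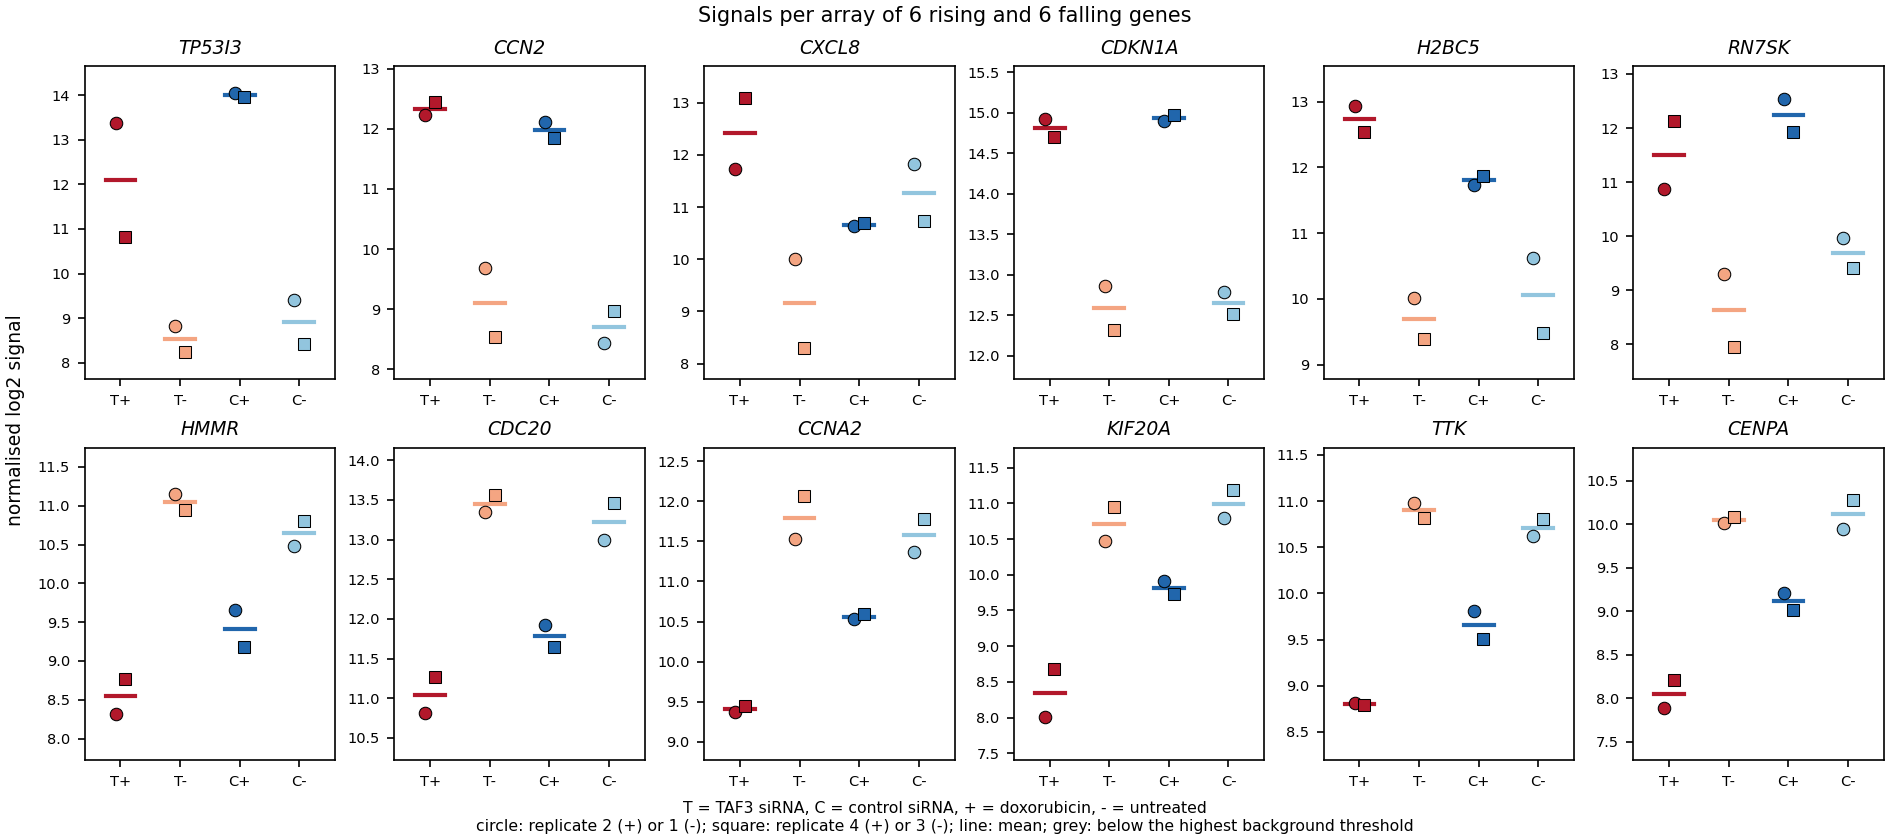
Normalised log2 signal (y axis) of 6 genes that rose and 6 that fell, by group (x axis); each point is 1 array and each line a mean of 2 arrays. In every panel both TAF3 siRNA arrays with doxorubicin (T+) lie apart from both untreated TAF3 siRNA arrays (T-); TP53I3 shows the widest gap between the treated replicates, 13.37 and 10.83.

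Many genes that p53 activates rose. Of 59 measured members of 3 lists of p53 targets, 28 rose and 0 fell, with a median change of 1.02, against 2.08% of all features rising and a median of 0.01. Among genes of arrest and feedback 10 of 20 rose (median 0.95). CDKN1A, which encodes the p21 inhibitor of cyclin-dependent kinases, stood at 14.93 and 14.70 with doxorubicin, against 12.86 and 12.32 untreated, a change of 2.23 ± 0.21 (adjusted p = 0.00422). SESN1, a stress-induced brake on mTORC1, stood at 11.83 and 10.92 against 9.87 and 8.60 (2.13 ± 0.40). Both treated arrays lay above both untreated arrays for each gene, as for all called genes. GADD45A, a growth-arrest protein of the DNA damage response, rose by 1.50 ± 0.23 and the antiproliferative gene BTG1 by 1.58 ± 0.21. Of the genes that limit p53, MDM2, the ligase that degrades it, stood at 7.99 and 7.63 against 6.59 and 6.68 (1.18 ± 0.18), and the phosphatase PPM1D, which switches damage signalling off, at 12.08 and 11.52 against 10.56 and 10.07 (1.49 ± 0.24). PLK2 (1.27 ± 0.19), a polo-like kinase, and the secreted stress cytokine GDF15 (1.40 ± 0.29) also rose.

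Among the p53 targets of apoptosis 12 of 20 rose (median 0.99). TP53I3, a quinone oxidoreductase linked to oxidative stress, had the largest increase of any called gene: 13.37 and 10.83 with doxorubicin, against 8.83 and 8.24 untreated (3.57 ± 0.67, adjusted p = 0.0238). TP53INP1, which promotes p53-dependent death and autophagy, had the next largest of that list at 11.53 and 10.61 against 8.32 and 7.99 (2.91 ± 0.28). TNFRSF10B, the TRAIL death receptor DR5, stood at 13.74 and 13.39 against 12.35 and 10.82 (1.99 ± 0.42), and its wide untreated pair makes its standard error among the larger ones. BAX, which opens the outer mitochondrial membrane, rose by 1.39 ± 0.26, PMAIP1, the BH3-only protein NOXA, by 1.18 ± 0.23 and the death receptor FAS, above background on 1 of the 2 untreated arrays, by 1.10 ± 0.26. BBC3, the BH3-only protein PUMA, was below background on both untreated arrays and was at least 1.79-fold higher with doxorubicin (adjusted p = 0.0226).

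In the repair and metabolism list 6 of 19 rose (median 1.10). XPC, the damage sensor of nucleotide excision repair, stood at 12.45 and 12.07 against 10.58 and 10.51 (1.71 ± 0.16). RRM2B, the p53-induced subunit of ribonucleotide reductase, reached 11.06 and 9.79 against 9.10 and 8.72 (1.51 ± 0.35), and TIGAR, which lowers glycolytic flux, reached 11.78 and 10.07 against 9.04 and 8.83 (1.99 ± 0.44). POLH, the translesion polymerase, rose by 0.84 ± 0.19, but its other probe changed by only 0.19. For RRM2B and TIGAR, as for TP53I3, doxorubicin replicate 2 lay more than 1 unit above replicate 4. This gap was shared by much of the group: 48 of the 59 genes (81.4%) were higher on replicate 2, by a median of 0.375, against 49.5% of all features. Calls for arrest, apoptosis and repair numbered 1, 1 and 2 without doxorubicin replicate 2, 3, 2 and 1 without untreated replicate 3, and 6, 3 and 3 without either control siRNA doxorubicin array. With median centring they were 9, 7 and 3. The control siRNA arrays gave 41 increases and 2 decreases among the same 59 genes (9.07% of all features rose and 8% fell there), with a median of 1.30; the 2 that fell there, named because of that count, were CPT1C (-0.96 ± 0.17) and PLTP (-0.63 ± 0.17).

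Most of the measured genes of mitosis fell. Across 4 lists (kinases, kinesins, centromere and kinetochore, and spindle checkpoint with the anaphase-promoting complex and cytokinesis) 60 of 94 measured genes fell and 0 rose, with a median of -1.19. Among all features 2.58% fell and 2.08% rose, with a median of 0.01. Each list count that follows is to be read beside these shares. The mean level of the 94 genes was 8.85 and 9.12 with doxorubicin, against 10.09 and 10.19 untreated. Treated replicate 2 was again the more extreme, with only 20 of the 94 genes (21.3%) above replicate 4. The count of genes that fell was 8 without doxorubicin replicate 2, 26 without untreated replicate 3, 37 without either control siRNA doxorubicin array and 47 with array weights; for kinases, kinesins, centromere and the last list it was 2, 1, 2 and 3 without doxorubicin replicate 2.

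All 11 measured mitotic kinesins fell (median -1.64). KIF20A, which carries cargo to the central spindle in cytokinesis, stood at 8.0 and 8.68 with doxorubicin, against 10.47 and 10.94 untreated (-2.37 ± 0.26, adjusted p = 0.00512). KIFC1, the minus-end motor that focuses spindle poles, stood at 8.63 and 9.12 against 10.90 and 11.24 (-2.19 ± 0.25). Also lower were KIF11, the motor that separates the poles (-1.64 ± 0.22), KIF23 of the central spindle (-1.79 ± 0.23) and CENPE, which brings chromosomes to the metaphase plate (-1.67 ± 0.25). The smallest decrease of the 11 was -1.16, that of KIF20B.

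Of 15 mitotic kinases 10 fell (median -1.39). TTK, the checkpoint kinase also called MPS1, had replicates that hardly differed, 8.81 and 8.79 against 10.98 and 10.82 (-2.10 ± 0.17). NEK2, which splits centrosomes, stood at 8.28 and 9.25 against 10.99 and 11.16 (-2.30 ± 0.29), and the checkpoint kinase BUB1 at 8.76 and 10.15 against 11.43 and 11.71 (-2.11 ± 0.39). AURKB of the chromosomal passenger complex (-1.75 ± 0.27), PLK1, which drives mitotic entry (-1.68 ± 0.33), and AURKA of the spindle poles (-1.60 ± 0.29) fell as well. WEE1, which restrains entry into mitosis, was not called, at -0.92 (adjusted p = 0.12).

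In the centromere and kinetochore list 23 of 35 fell (median -1.17). CENPA, the histone H3 variant that marks centromeres, stood at 7.89 and 8.21 against 10.02 and 10.09 (-2.0 ± 0.18). Its chaperone HJURP (-1.94 ± 0.27), MIS18A, which prepares centromeres for CENPA loading (-1.56 ± 0.21), and CENPM (-1.70 ± 0.19) fell with it. The NDC80 complex, which grips microtubules, was represented by SPC25 (-2.09 ± 0.26), NDC80 (-1.80 ± 0.23) and NUF2 (-1.17 ± 0.22). The partners of AURKB, survivin, encoded by BIRC5 (-1.44 ± 0.29), and borealin, encoded by CDCA8 (-1.56 ± 0.21), fell too. CENPF did not pass at -1.19 (adjusted p = 0.14).

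In the list of the spindle checkpoint, the anaphase-promoting complex and cytokinesis 16 of 33 fell (median -0.89). HMMR, a spindle-associated hyaluronan receptor, stood at 8.32 and 8.77 against 11.15 and 10.95 (-2.50 ± 0.23, adjusted p = 0.00422). CDC20, the activator of the anaphase-promoting complex, stood at 10.82 and 11.27 against 13.34 and 13.56 (-2.40 ± 0.22). Both genes showed treated and untreated pairs more than 2 units apart. The E2 enzyme of that complex, UBE2C (-1.58 ± 0.29), MAD2L1 of the checkpoint (-1.70 ± 0.26), DLGAP5 of the spindle (-2.22 ± 0.28) and CEP55 of abscission (-1.95 ± 0.20) also fell. Outside these lists the mitotic genes DEPDC1 (-2.52 ± 0.36, the largest decrease of any called gene), CDCA2 (-2.02 ± 0.19), CDCA3 (-1.95 ± 0.27) and TROAP (-1.84 ± 0.29) were also among the 25 largest decreases. FAM72B (-2.07 ± 0.25) and the tubulin gene TUBB (-1.91 ± 0.31) fell too; both belong to families of near-identical copies, so their probes may read several genes.

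The promoters of mitotic genes often carry 2 short elements, the cell cycle genes homology region (CHR), which DREAM binds through MuvB, and the CCAAT box, bound by NF-Y. Sequences of 300 bases around the start site (250 before, 50 after) were taken from RefSeq, build GRCh38.p14. Either strand was searched for TTTGAA or TTCGAA (CHR) and for CCAAT, and matches that overlap were all counted. A CHR was in 47 of 79 promoters found for the 94 mitotic genes (59.5%), against 11.3% of 9938 promoters of features tested and 16.6% of all 27305 promoters, and a CHR together with CCAAT in 41.8%, against 4.82% and 6.58%. Among mitotic genes that fell the share with a CHR was 76% (38 of 50), and among those not called 31% (9 of 29). Over all called genes it was 30.2% of 301 promoters of genes that fell and 10.4% of 251 of genes that rose, the second near the 11.3% of features tested. In the DNA replication list, described further on, it was 5.13% of 39. The p53 half-site, searched as its degenerate pattern, was in 8.51% of 47 promoters of the p53 lists, against 5.28% of those of features tested and 6.54% of all. These shares describe letters within a window and show no binding.

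The sequences that follow belong to 5 genes whose decreases are given above or below, and were picked to show both elements and their spacing; capitals mark the matches, on either strand. CDC20 lies on the plus strand at chr1:43358731-43359030, HMMR at chr5:163460382-163460681, CCNB2 at chr15:59104896-59105195 and PLK1 at chr16:23678639-23678938, all plus, and CCNA2 on the minus strand at chr4:121823834-121824133. CDC20 holds 2 CHR and 2 CCAAT matches. HMMR holds 2 adjoining CHR and 5 CCAAT matches, among them a palindrome read on both strands, CCNB2 1 and 4, and PLK1 1 and 1. The CHR of CCNB2 and of PLK1 begins 29 bases before the start site, and those of HMMR begin 28 and 22 bases before it. CCNA2, which also fell, holds 1 CCAAT match and neither of the exact CHR spellings.
CDC20: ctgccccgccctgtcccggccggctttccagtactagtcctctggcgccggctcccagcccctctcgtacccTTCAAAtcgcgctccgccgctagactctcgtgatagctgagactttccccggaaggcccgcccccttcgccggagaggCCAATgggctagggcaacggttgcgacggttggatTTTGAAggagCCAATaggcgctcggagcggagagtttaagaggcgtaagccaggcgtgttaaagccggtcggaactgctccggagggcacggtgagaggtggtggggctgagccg
HMMR: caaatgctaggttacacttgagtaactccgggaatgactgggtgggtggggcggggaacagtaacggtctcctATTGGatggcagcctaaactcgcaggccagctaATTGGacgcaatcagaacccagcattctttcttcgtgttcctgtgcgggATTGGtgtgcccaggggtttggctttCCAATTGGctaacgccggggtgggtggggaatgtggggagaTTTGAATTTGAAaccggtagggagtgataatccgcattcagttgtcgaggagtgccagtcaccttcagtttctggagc
CCNB2: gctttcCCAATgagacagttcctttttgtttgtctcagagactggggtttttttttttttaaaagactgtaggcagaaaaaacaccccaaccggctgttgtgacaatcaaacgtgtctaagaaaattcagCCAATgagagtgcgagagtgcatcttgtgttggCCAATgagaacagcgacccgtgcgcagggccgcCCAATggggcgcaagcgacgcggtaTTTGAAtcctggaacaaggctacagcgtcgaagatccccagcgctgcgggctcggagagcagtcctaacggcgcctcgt
PLK1: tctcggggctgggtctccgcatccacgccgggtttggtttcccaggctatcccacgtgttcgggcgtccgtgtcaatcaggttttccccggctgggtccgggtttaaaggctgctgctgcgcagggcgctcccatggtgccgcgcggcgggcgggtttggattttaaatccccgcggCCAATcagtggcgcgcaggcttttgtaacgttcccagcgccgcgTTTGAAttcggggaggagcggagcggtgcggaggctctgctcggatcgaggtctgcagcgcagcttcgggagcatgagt
CCNA2: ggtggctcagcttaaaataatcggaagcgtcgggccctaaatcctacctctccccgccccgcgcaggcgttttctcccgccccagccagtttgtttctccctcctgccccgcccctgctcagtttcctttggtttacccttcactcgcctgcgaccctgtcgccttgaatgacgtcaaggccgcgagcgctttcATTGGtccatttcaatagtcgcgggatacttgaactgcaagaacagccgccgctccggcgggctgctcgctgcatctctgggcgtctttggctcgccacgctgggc

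Of 21 cyclins, cyclin-dependent kinases and their regulators 9 fell and 0 rose (median -0.68). CCNA2, cyclin A2 of S phase and G2, stood at 9.37 and 9.45 with doxorubicin, against 11.52 and 12.07 untreated (-2.38 ± 0.21, adjusted p = 0.00422). The mitotic cyclin CCNB2 stood at 9.56 and 9.87 against 11.49 and 11.79 (-1.92 ± 0.21). CCNB1 (-1.71 ± 0.30), CDK1 (-1.24 ± 0.18) and its activating phosphatases CDC25C (-1.40 ± 0.29) and CDC25A (-1.24 ± 0.19) also fell, as did CCNF (-1.80 ± 0.19). CCNE1, cyclin E1 of the G1 to S transition, was at -0.50 (adjusted p = 0.11). Without doxorubicin replicate 2 the count was 3, and without untreated replicate 3 it was 4. Among 23 regulators of the DREAM and E2F system 3 fell: FOXM1, the activator of mitotic genes (7.83 and 8.33 against 9.52 and 9.55, -1.46 ± 0.19), E2F2 (9.24 and 9.13 against 10.42 and 10.50, -1.27 ± 0.17) and LIN9 of MuvB (-0.74 ± 0.17). The pocket proteins RBL1 (-0.70) and RBL2 (0.78) had changes of opposite sign and neither was called. This list held 0 calls without doxorubicin replicate 2.

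Genes of DNA replication fell in 19 of 46 cases, with 0 rising and a median of -0.80. GINS2, of the replicative helicase, stood at 9.91 and 10.18 with doxorubicin, against 11.67 and 12.28 untreated (-1.93 ± 0.42, adjusted p = 0.0397). PRIM1, the primase that starts each Okazaki fragment, stood at 9.07 and 10.09 against 11.22 and 11.72 (-1.89 ± 0.31). ORC1 of the origin recognition complex had close pairs, 7.42 and 7.37 against 8.94 and 9.01 (-1.58 ± 0.20). The MCM helicase was represented by MCM6 (-1.48 ± 0.24), MCM4 (-1.28 ± 0.17) and MCM2 (-1.28 ± 0.23), and the polymerase alpha subunit POLA1 fell by 1.33 ± 0.21. CDC45 (-1.06, adjusted p = 0.14) did not pass. Calls numbered 0 without doxorubicin replicate 2, 2 without untreated replicate 3, and 9 without either control siRNA doxorubicin array.

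Of 17 genes of nucleotide supply 5 fell, among them TK1, thymidine kinase, at 10.67 and 10.49 against 11.56 and 12.34 (-1.37 ± 0.27), and CAD, which starts pyrimidine synthesis (-0.87 ± 0.17). Of 20 genes of condensin, cohesin and topoisomerases 7 fell. TOP2A, a topoisomerase II that doxorubicin poisons, stood at 9.78 and 9.90 against 11.30 and 11.25 (-1.43 ± 0.22). The condensin subunit NCAPG stood at 10.61 and 10.40 against 11.85 and 12.06 (-1.45 ± 0.18). Homologous recombination and Fanconi anaemia genes fell in 10 of 25 cases (median -0.69). CHEK1, the checkpoint kinase of stalled forks, stood at 9.25 and 9.75 against 10.96 and 11.42 (-1.69 ± 0.22), and BRCA1 changed by -0.96 ± 0.21. Calls for nucleotides, condensin and recombination numbered 0 in each list without doxorubicin replicate 2, 0, 1 and 1 without untreated replicate 3, and 0, 4 and 5 without either control siRNA doxorubicin array. NEIL3, a glycosylase of interstrand crosslink repair outside the lists, fell by 1.89 ± 0.19.

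**Figure D2:**
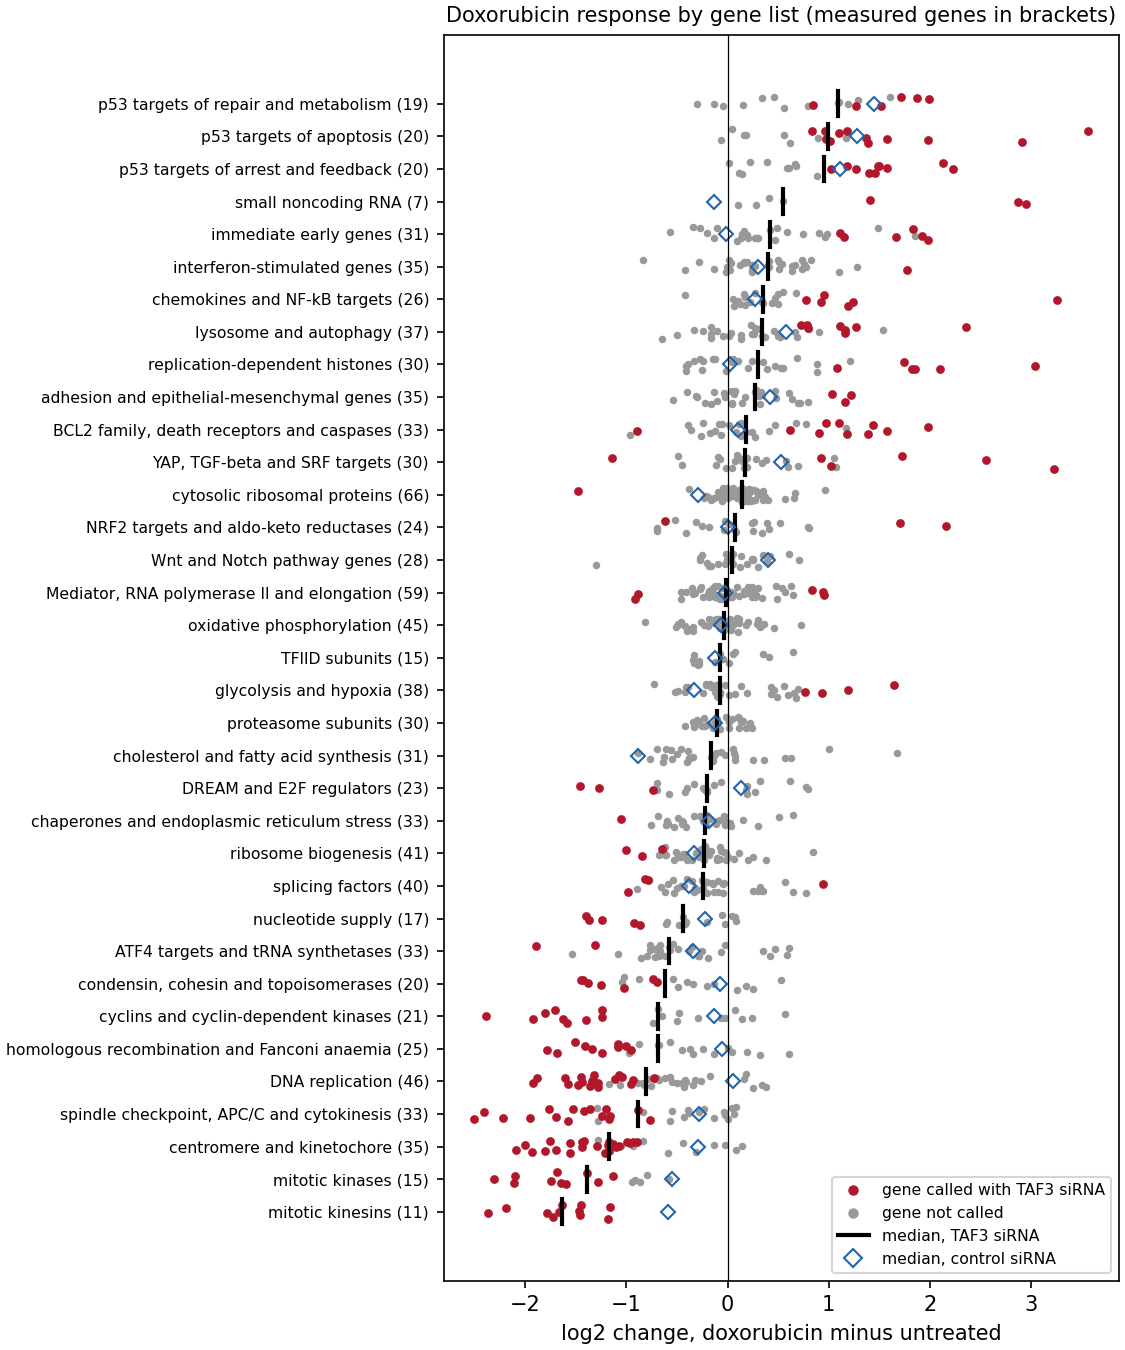
Change with doxorubicin in TAF3 siRNA cells (x axis, log2) of every measured gene of 35 lists (y axis), with genes called in red, list medians as black bars and the control siRNA median as a blue diamond. Mitotic kinesins have the lowest median, -1.64, and the p53 targets of repair and metabolism the highest, 1.10.

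Of 30 measured replication-dependent histone genes 6 rose and 0 fell (median 0.30). H2BC5 stood at 12.94 and 12.53 with doxorubicin, against 10.01 and 9.38 untreated (3.04 ± 0.35, adjusted p = 0.00674). The linker histone H1-2 stood at 11.42 and 11.13 against 9.08 and 9.77 (1.85 ± 0.32), and H2AC6 at 9.19 and 8.91 against 7.37 and 7.25 (1.74 ± 0.25). H2BC21 (1.82 ± 0.29), H2BC12 (1.09 ± 0.24) and H2AC18 (2.11 ± 0.41) also rose, with the copies of each family so alike that a probe may read several. Bulk histone mRNA lacks a poly(A) tail, and the labelling used an oligo(dT) primer, so these signals need not follow total histone mRNA. The same holds for small noncoding RNAs, of which 3 of 7 rose. RN7SK, the scaffold that holds the elongation kinase P-TEFb inactive, stood at 10.87 and 12.13 against 9.30 and 7.96 (2.87 ± 0.50), SNORD13, which guides rRNA acetylation, at 11.90 and 11.02 against 9.01 and 8.01 (2.95 ± 0.42), and RPPH1, the RNase P RNA, at 9.18 and 9.96 against 8.27 and 8.05 (1.41 ± 0.27). How much of either change lies in tailed transcripts was not tested. The histone count was 0 without doxorubicin replicate 2, 2 without untreated replicate 3 and 3 without either control siRNA doxorubicin array, and the noncoding RNA count was 1, 1 and 2 in the same fits.

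Immediate early genes, which respond within minutes to growth factors and stress, rose in 6 of 31 cases with 0 falling (median 0.42). ATF3, a stress-induced repressor, stood at 12.12 and 12.35 with doxorubicin, against 10.48 and 10.03 untreated (1.98 ± 0.20). DUSP1, the phosphatase that ends MAP kinase signals, stood at 11.49 and 12.27 against 9.996 and 9.91 (1.92 ± 0.27), and FOS at 10.97 and 10.35 against 8.96 and 8.70 (1.83 ± 0.33). Their pairs were separated by more than 1 unit. JUNB (1.16 ± 0.19), the nuclear receptor NR4A2 (1.67 ± 0.34) and ZFP36, which destabilises cytokine mRNAs (1.11 ± 0.16), also rose, while JUN (1.49, adjusted p = 0.079) and EGR1 (0.96, adjusted p = 0.12) did not pass. The count was 2 without doxorubicin replicate 2 or untreated replicate 3.

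Chemokine and NF-κB target genes rose in 6 of 26 cases. CXCL8, the neutrophil chemokine interleukin-8, stood at 11.74 and 13.10 with doxorubicin, against 10.01 and 8.31 untreated (3.26 ± 0.59, adjusted p = 0.0214), with both pairs more than 1 unit wide. The feedback inhibitor NFKBIA stood at 11.97 and 11.81 against 11.09 and 10.22 (1.24 ± 0.28). RELB (1.19 ± 0.18) and NFKB2 (0.78 ± 0.15), the pair of the noncanonical pathway, and NFKBIZ (0.95 ± 0.15) also rose. Of 35 interferon-stimulated genes 1 rose, near the 2.08% of all features that rose. It was the peptide transporter TAP1, at 12.96 and 11.75 against 10.79 and 10.38 (1.77 ± 0.34). The NF-κB count was 0 without doxorubicin replicate 2 or untreated replicate 3, 2 without either control siRNA doxorubicin array, and 3 without doxorubicin replicate 4 or with median centring; TAP1 lost its call without each of the first 4 of these arrays.

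Among 30 targets of YAP, TGF-beta and serum response factor 5 rose and 1 fell. The matricellular genes CCN2 and CCN1 stood at 12.22 and 12.44 against 9.68 and 8.53 (3.22 ± 0.34) and at 12.03 and 12.67 against 10.86 and 10.38 (1.73 ± 0.28). ACTA2, smooth muscle actin, stood at 12.80 and 12.04 against 10.36 and 9.36 (2.56 ± 0.33). The member that fell was TEAD4, a DNA-binding partner of YAP (-1.15 ± 0.22). Of the adhesion and epithelial list 3 of 35 rose: the integrin ITGAV (1.03 ± 0.18), the laminin LAMB3 (1.22 ± 0.25) and the keratin KRT20, below background untreated and at least 1.95-fold higher with doxorubicin (adjusted p = 0.0479). The first list held 2 calls, and the second 0, without doxorubicin replicate 2 or untreated replicate 3, and 3 and 0 without either control siRNA doxorubicin array.

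In a list of 33 BCL2 family members, death receptors and caspases, which shares genes with the p53 apoptosis list, 9 rose and 1 fell; the one that fell was the BH3-only gene HRK (-0.89 ± 0.19), and CFLAR, the inhibitor of caspase-8, rose by 0.91 ± 0.20. Of 37 lysosome and autophagy genes 8 rose and 0 fell (median 0.34). DEPP1, a FOXO-induced regulator of autophagy, stood at 9.49 and 9.15 against 7.22 and 6.69 (2.36 ± 0.21), and MAP1LC3B, the LC3 protein of autophagosomes, at 11.47 and 11.70 against 10.58 and 10.28 (1.16 ± 0.20). The LC3 relatives GABARAPL1 (1.11 ± 0.19) and GABARAPL2 (0.72 ± 0.15) and the saposin precursor PSAP (0.80 ± 0.15) rose too. The death list had 0 calls and the autophagy list 1 without doxorubicin replicate 2, 1 and 1 without untreated replicate 3, and 1 and 3 without either control siRNA doxorubicin array; with median centring they had 4 each.

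Of 24 aldo-keto reductase and NRF2 target genes 3 were called: AKR1B10 rose, at 10.64 and 9.53 against 8.32 and 7.53 (2.16 ± 0.36), AKR1C3 rose by 1.70 ± 0.27, with 1 of its untreated arrays above background, and GSR, glutathione reductase, fell by 0.62 ± 0.15. Other genes among the 25 largest increases were MXD4, a MYC antagonist (12.02 and 11.80 against 10.002 and 9.16, 2.33 ± 0.26), SERPINB5, maspin (1.97 ± 0.34), CYFIP2 (2.07 ± 0.36), ANKRA2 (1.87 ± 0.26), and RASD1, a small GTPase below background untreated and at least 3.15-fold higher with doxorubicin. The glutamate receptor gene GRIN2C (2.47 ± 0.34) and the dynein gene DNAI3 (2.13 ± 0.37) were each above background on 1 of the 2 untreated arrays. Among the 25 largest decreases were NMU, the peptide neuromedin U (9.73 and 10.63 against 12.07 and 12.19, -1.95 ± 0.26), and PHGDH, the first enzyme of serine synthesis (10.73 and 10.87 against 12.30 and 13.10, -1.90 ± 0.25). PSAT1, the next enzyme of that route, fell by 1.31 ± 0.27, and these were the only 2 of 33 ATF4 targets and tRNA synthetase genes called, at a list median of -0.58. Neither this list nor the NRF2 list kept a call without doxorubicin replicate 2.

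Several lists held few or no calls with TAF3 siRNA. None of 15 TFIID subunits was called (median -0.08), with TAF13, the highest, at 0.65 (adjusted p = 0.056). Of 59 genes of Mediator, RNA polymerase II and elongation 3 rose and 2 fell, beside 2.08% and 2.58% of all features. POLR2A, the largest polymerase subunit, stood at 13.38 and 12.84 against 12.24 and 12.08 (0.95 ± 0.22), and the initiation factor GTF2B at 10.97 and 10.97 against 10.04 and 9.99 (0.95 ± 0.15). No gene was called among 45 of oxidative phosphorylation, 31 of cholesterol and fatty acid synthesis, 30 of the proteasome and 28 of the Wnt and Notch pathways, and 1 among 66 cytosolic ribosomal proteins (RPS7, -1.48 ± 0.30). A call needs a change large beside a spread estimated from 2 arrays in each of 4 groups, after adjustment over 16348 features. A list without calls is therefore not shown to be unaffected. Among 38 genes of glycolysis and hypoxia 4 rose: NDRG1 (11.95 and 11.62 against 10.53 and 9.74, 1.65 ± 0.26), the lipase inhibitor ANGPTL4 (1.19 ± 0.20), the peptide ADM (0.93 ± 0.20) and the histone demethylase KDM3A (0.77 ± 0.15). On doxorubicin replicate 2 this list was higher than on replicate 4 in 32 of 38 genes (84.2%), and the interferon list in 29 of 35 (82.9%). Without that array the glycolysis and hypoxia list and the Mediator and polymerase list held 0 calls each.

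**Figure D3:**
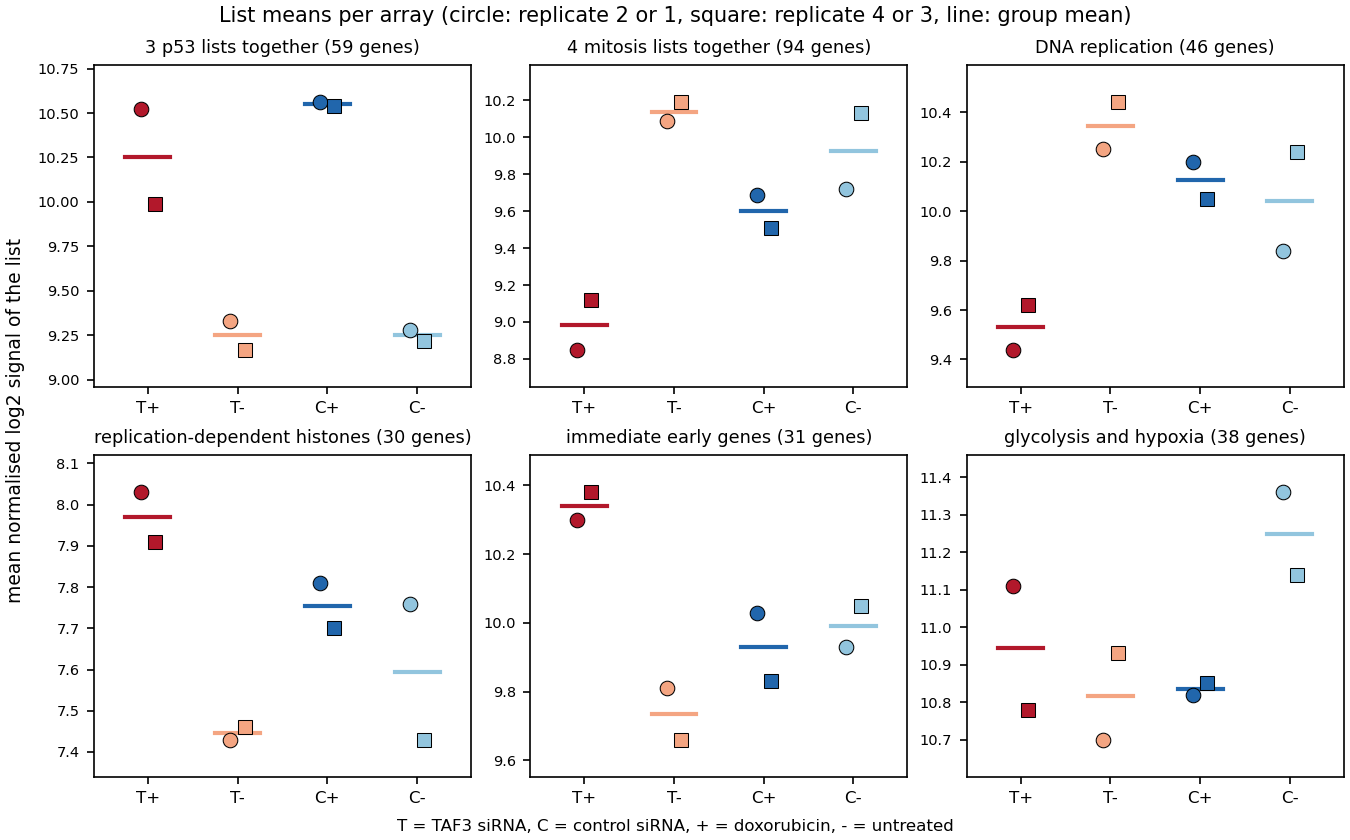
Mean normalised log2 signal (y axis) of 6 gene lists on each array, by group (x axis); points are arrays and lines are means of 2 arrays. The 59 p53 targets average 10.52 and 9.99 on the TAF3 siRNA arrays with doxorubicin, against 9.33 and 9.17 on the untreated ones, and the 94 mitotic genes 8.85 and 9.12 against 10.09 and 10.19.

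The same treatment after control siRNA, on 4 arrays not shared with the comparison above, called 2791 features (17.1%; 1483 rose and 1308 fell, 53.1% higher, or 63.3% with median centring). That count was 264 and 857 without doxorubicin replicates 2 and 4 of control siRNA, and 970 and 1299 without its untreated replicates 1 and 3. Of the 340 features that rose with TAF3 siRNA, 306 had a positive change with control siRNA and 212 also rose there; of the 421 that fell, 361 had a negative change and 160 also fell. The medians of these sets with control siRNA were 0.86 and -0.55, beside 1.06 and -1.07 with TAF3 siRNA, the values that chose them. A difference in the number of calls does not show a difference in response, so the difference was tested in the same fit. Of 16348 features 6 passed (0.0367%) and 2422 had an unadjusted p below 0.05. The features that passed were 0 without control siRNA untreated replicate 3, either control siRNA doxorubicin array or TAF3 siRNA doxorubicin replicate 4, 1 without control siRNA untreated replicate 1 or TAF3 siRNA untreated replicate 3, 251 without TAF3 siRNA untreated replicate 1 and 324 without TAF3 siRNA doxorubicin replicate 2. The median difference over all features was 0.02, and -0.10 with the deposited signals left without further normalisation, a scaling under which 1 feature passed.

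**Figure D4:**
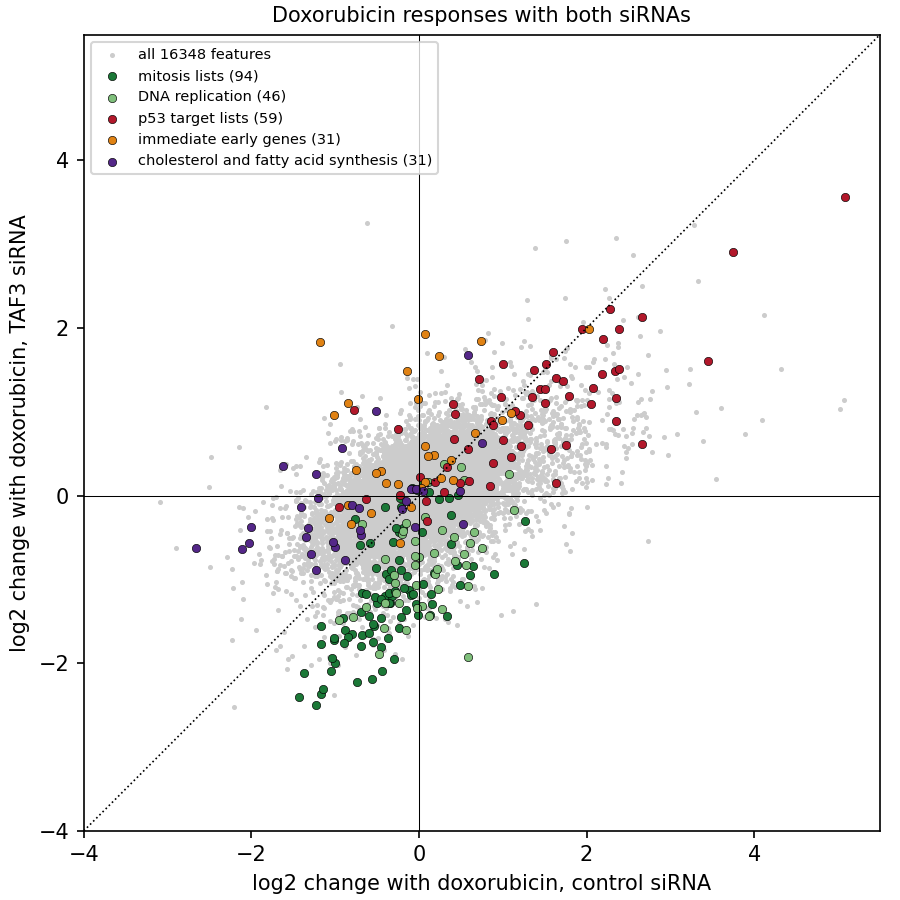
Change with doxorubicin after TAF3 siRNA (y axis, log2) against the change after control siRNA (x axis, log2) for 16348 features, with members of 5 sets of lists coloured; the dotted line marks equal changes. Most of the 94 mitotic genes lie below the dotted line, with medians of -1.19 (TAF3 siRNA) and -0.34 (control siRNA), and cholesterol genes lie mostly left of zero, with medians of -0.16 and -0.88.

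For mitotic genes the change was -1.19 with TAF3 siRNA and -0.34 with control siRNA (medians over 94 genes), with 16 falling and 1 rising in control cells, where 8% of all features fell. The test of the difference passed for 0 of the 94 and gave an unadjusted p below 0.05 for 55 of them. Over all features 2422 of 16348 had such a p, the share to set beside this count and those below. Under doxorubicin the mean level of the 94 genes was 8.85 and 9.12 with TAF3 siRNA and 9.69 and 9.51 with control siRNA. When untreated it was 10.09 and 10.19 with TAF3 siRNA and 9.72 and 10.13 with control siRNA. The treated pairs of the 2 siRNAs did not overlap and the untreated pairs did. NUSAP1, a spindle protein, had a difference of -1.55, further from zero than the median of -0.86 over the 94 genes. It stood at 10.73 and 10.77 with TAF3 siRNA under doxorubicin and 12.10 and 12.24 untreated (-1.42 ± 0.19). With control siRNA it stood at 11.99 and 11.45 under doxorubicin and 11.62 and 11.56 untreated (0.13, adjusted p of the difference 0.075). CDC20 (-1.44) and TTK (-1.05) were among the 16 that fell with control siRNA too. Their differences were -0.97 and -1.05, also further from zero than that median (adjusted p of the difference 0.21 and 0.10). For the 46 DNA replication genes the medians were -0.80 and 0.05, and 28 had an unadjusted p below 0.05, with 0 passing after adjustment. For the 31 cholesterol and fatty acid genes the medians were -0.16 and -0.88, with 0 calls against 17 decreases. For the difference, 13 were at an unadjusted p below 0.05 and 0 passed after adjustment. Under doxorubicin the mean level of these genes was 9.87 and 9.90 with TAF3 siRNA and 9.76 and 9.68 with control siRNA. When untreated it was 9.93 and 10.11 with TAF3 siRNA and 10.67 and 10.37 with control siRNA. Ribosomal protein genes had medians of 0.14 and -0.29, with 23 of 66 at an unadjusted p below 0.05 and 0 after adjustment.

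Called in opposite directions with the 2 siRNAs were 10 genes, named here because of those values. FOS, ZFP36, KDM3A, KLF9 and TANK rose with TAF3 siRNA and fell with control siRNA, while TK1, E2F2, HELLS, POLQ and PAXX did the reverse. FOS changed by 1.83 ± 0.33 with TAF3 siRNA and by -1.18 ± 0.33 with control siRNA, where it stood at 9.95 and 8.97 with doxorubicin and 10.39 and 10.90 untreated. TK1 changed by -1.37 ± 0.27 and by 1.12 ± 0.27, standing at 13.34 and 12.93 in treated control siRNA cells, against 11.84 and 12.19 in untreated ones. KLF9, a glucocorticoid-responsive repressor, changed by 1.06 ± 0.21 and -0.74 ± 0.21, and HELLS, a chromatin remodeller needed for DNA methylation, by -1.42 ± 0.27 and 0.97 ± 0.27. Of the 10, only ZFP36 passed the test of the difference over all features, at 1.95 ± 0.23 (adjusted p = 0.0473); the other 9 had adjusted p-values between 0.0524 and 0.0734.

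**Figure D5:**
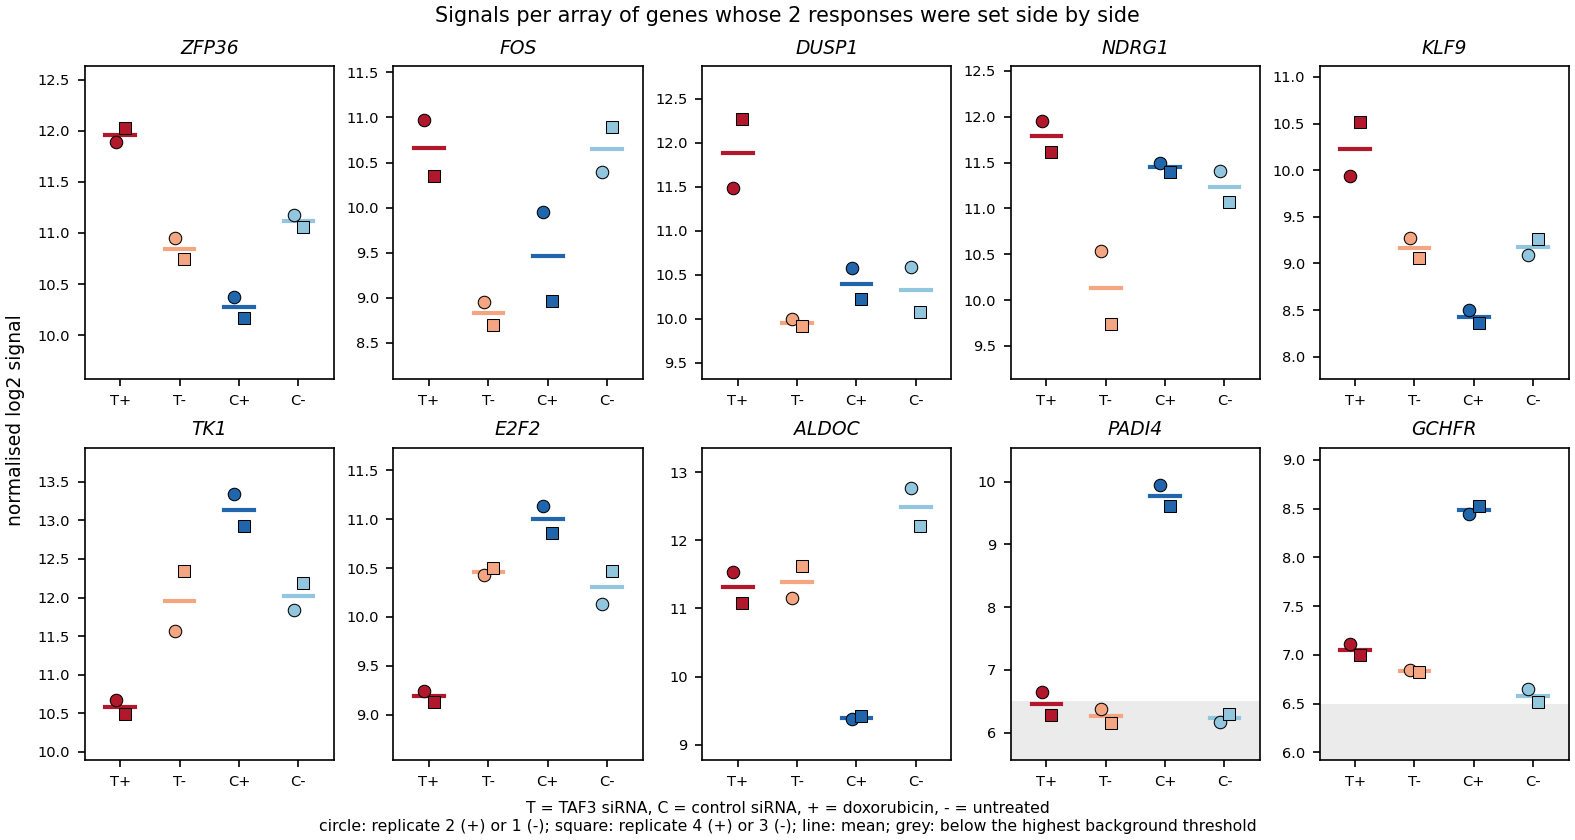
Normalised log2 signal (y axis) of 10 genes on each array, by group (x axis); points are arrays, lines are means of 2 arrays, and the grey band marks signals below the highest background threshold. ZFP36 and FOS lie higher with doxorubicin after TAF3 siRNA (T+ over T-) and lower with doxorubicin after control siRNA (C+ under C-); TK1 and E2F2 show the reverse.

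Some calls were kept whichever array was left out. In these fits the lone array of a group is assumed to vary like the other groups. Leaving out a control siRNA array cannot alter a change with TAF3 siRNA, only the estimate of its spread. Fitted on the TAF3 siRNA arrays alone, the call count was 0. The calls that follow therefore rest on a spread drawn partly from the control siRNA arrays. Called with each of the 8 arrays left out in turn were 29 features, of which 27 are named genes, 10 higher and 17 lower. Those that rose were CDKN1A, XPC, TP53INP1, ATF3, DUSP1, CCN2, DEPP1, SGK1, YPEL5 and PCMTD1. Those that fell were CCNA2, CCNB2, CCNF, CDC20, CDCA2, CENPA, CENPM, CEP55, CKAP2L, HMMR, KIF20A, NEK2, TTK, NEIL3, NMU, MYT1 and CLCC1. SGK1, a kinase induced by serum and glucocorticoids, stood at 9.36 and 9.43 with doxorubicin, against 8.04 and 7.79 untreated (1.48 ± 0.15), and the neural transcription factor gene MYT1 at 7.69 and 7.63 against 8.96 and 8.98 (-1.31 ± 0.14). SGK1, YPEL5, PCMTD1, CKAP2L, MYT1 and CLCC1 are named for this outcome, which was seen first.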

How the data were processed

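The members and gene lists were chosen with earlier results of these data known. RNA was labelled with biotin from oligo(dT)-primed cDNA, per the labels' protocols. Probe intensity was deposited on a linear scale; the submitters' processing notes name BeadStudio, any further step being not given in the sources used here. The median signal over 48803 probes is 73.9 on every array. A second deposited table holds detection values headed as p-values that rise with the signal, so they were read as 1 minus a detection p-value. Its 8 signal columns name no sample and were not used; its detection p-values served as the number of arrays, of 8, on which a probe was detected at p below 0.05.

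Signals were corrected with normexp (offset 50), quantile normalised and put on the log2 scale. Probes detected on at least 2 arrays were kept (20628). A gene was read from its brightest probe, and probes lacking a unique symbol were kept as they were, giving 16348 features, 12250 of them named. The gene table gave 28098 probes 1 symbol and 13 probes several, and does not list 20692; 28059 gene numbers were found in RefSeq. The 4 group means were estimated by limma 3.58.1 under R 4.3.3 from the 8 arrays (lmFit, eBayes; 4 residual and 4.98 prior degrees of freedom), and p-values were adjusted by Benjamini-Hochberg over all features at 0.05. Standard errors draw on all 4 groups. The median standard deviation between a group's 2 arrays was 0.14 treated and 0.15 untreated with TAF3 siRNA. With control siRNA it was 0.10 and 0.13. The pooled standard errors may therefore be too small for changes with TAF3 siRNA. The number of arrays limits the precision. Where a group lay wholly below background, "at least" gives the brighter mean over the higher of threshold and own signal.

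Genes named came from a rule: TAF3; the 25 highest and 25 lowest changes of called genes with no overlap between the groups' arrays; genes that pass the test of the difference; list genes marked as key; and up to 6 members per list with the smallest p. It gives 361 genes; the text names 145, picked with values known, and 216 are not reported here, 42 of them called (9 higher, 33 lower). Genes named outside it are stated. Lists were given counts and medians, without tests. The fit was tested on simulated data. Alternatives covered background correction, normalisation, offset, filters, probe choice, samples fitted, array weights, a replicate block, the prior and leaving out each array.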

Additional observations from a re-analysis of the deposited data

Results flagged for a closer look

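For 6 features the change with doxorubicin differed between TAF3 siRNA and control siRNA by the test of that difference (limma, adjusted over 16348 features). ALDOC, the glycolytic enzyme aldolase C, stood at 11.54 and 11.09 with TAF3 siRNA and doxorubicin, against 11.16 and 11.62 with TAF3 siRNA alone (-0.08 ± 0.24). With control siRNA it stood at 9.37 and 9.42 treated, against 12.76 and 12.21 untreated (-3.09 ± 0.24), so the difference of the changes was 3.01 ± 0.34 (adjusted p = 0.0473). PADI4, which converts histone arginine to citrulline and is a p53 target, was above background on 1 of 2 arrays with TAF3 siRNA and doxorubicin, at 6.64 and 6.28, against 6.37 and 6.16 untreated. With control siRNA and doxorubicin it reached 9.94 and 9.61 and was at least 10.2-fold higher than in untreated cells, where it was below background on both arrays. The fitted difference was -3.35 ± 0.27 (adjusted p = 0.00888). All groups but control siRNA with doxorubicin lay near background, which limits how well the size of this difference is known. GCHFR, the feedback regulator of GTP cyclohydrolase, stood at 7.11 and 6.99 against 6.84 and 6.83 with TAF3 siRNA, and at 8.45 and 8.53 against 6.65 and 6.52 with control siRNA, a difference of -1.69 ± 0.20 (adjusted p = 0.0473). ZFP36, given in the report, changed in opposite directions, with a difference of 1.95 ± 0.23. The unnamed probes ILMN_1661628 and ILMN_1874901 had differences of -1.84 and -1.77, and of their 2 treated and 2 untreated TAF3 siRNA arrays the first was above background on 2 and 1 and the second on 1 and 0.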

How the results depend on the processing

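The count of 761 calls with TAF3 siRNA was 400 with array weights, 0 on the 4 TAF3 siRNA arrays alone and 36 to 1630 with 1 array left out. The 2791 calls with control siRNA were 4202 on those 4 arrays alone and 264 to 3425 with 1 array left out. The 6 differences between siRNAs were 1 with median centring or with log2 of the deposited signal and no further step (added after the data were seen), 0 with probes detected on all 8 arrays (limma, 1855 at an unadjusted p below 0.05), 22 without a filter on dim probes, 90 with a trended robust prior, and 0 to 324 with 1 array left out. With 1 array left out, the lone array of a group is assumed to vary like the other groups. Of 143 called genes named here, 0 changed sign in any alternative; 29 stayed called without TAF3 siRNA doxorubicin replicate 2, 60 without TAF3 siRNA untreated replicate 3, 0 on the 4 arrays alone, and between 90 and 143 in each other alternative (132 of 135 with probes detected on all arrays). Among genes not called, TAF3 turned to -0.08 without TAF3 siRNA untreated replicate 1 and -0.04 without doxorubicin replicate 2, and ALDOC to 0.15 without untreated replicate 3 or doxorubicin replicate 4 (range over single arrays left out, -0.08 to 0.19 for TAF3 and -0.31 to 0.15 for ALDOC); PLTP, at -0.04, ranged between -0.21 and 0.12 in the same way. Untreated arrays are numbered 1 and 3 and doxorubicin arrays 2 and 4, so the groups compared share no number and no fixed block could be fitted. Between siRNAs, same-numbered arrays deviated together with r = -0.03 (1 and 3) and 0.21 (2 and 4). With 2 arrays per group the deviations mirror each other, so each pair of numbers gives a single value. Whether the numbers pair the samples therefore cannot be told from these values. With the replicate number as a random block (consensus correlation 0.0904) there were 763 calls with TAF3 siRNA, 2802 with control siRNA and 49 differences. Genes near background are limited by signal. The cause of these changes was not tested.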
